A study of Rattus norvegicus with 35 samples.

Results

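Genes of hepatic stellate cells and of the extracellular matrix were followed across the livers of rats fed triazole fungicides. The 10 genes were Col1a1, Col1a2, Col3a1, Col4a1, Dcn, Lum, Timp1, Des, Pdgfrb and Tgfb1, chosen by name and matched to the array's gene symbols, with the probe set of highest mean taken for each gene. They make up 10 of the 14217 genes with a probe set of their own, and 15 of the 31042 probe sets tested. Wistar Han IGS rats received feed with no fungicide or with myclobutanil at 500 or 2000 ppm, propiconazole at 500 or 2500 ppm, or triadimefon at 500 or 1800 ppm, from gestation day 6 to postnatal day 92. The RNA of each animal's liver went on an Affymetrix whole-genome rat array of its own. The 32 arrays with values were 7 controls, 5 of myclobutanil 500 ppm, 4 of myclobutanil 2000 ppm, 3 of propiconazole 500 ppm, 4 of propiconazole 2500 ppm, 5 of triadimefon 500 ppm and 4 of triadimefon 1800 ppm. The labels give no sex and do not say which animals were littermates, so the p-values measure the spread between these animals only.

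Hepatic stellate cells lie between the sinusoidal endothelium and the hepatocytes and store vitamin A. In injured liver they turn into myofibroblasts that secrete fibrillar collagen. Transforming growth factor beta 1 (Tgfb1) drives that collagen synthesis, platelet-derived growth factor acting on the receptor encoded by Pdgfrb drives their proliferation, and Timp1 blocks the metalloproteinases that would remove the matrix. Collagen messenger RNA in liver also comes from portal fibroblasts and, for type IV collagen, from endothelial cells. In RNA of whole liver, fewer cells of a type and less RNA per cell cannot be told apart.

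The values are the submitters' scores, whose scale and log base are not stated. The median over all probe sets lay between 0.00531 and 0.0585 on every array, so a score near 0 is near the middle of the array and does not mean that a transcript was absent. The SD over all probe sets ran from 0.701 to 1.02 between arrays. It was 0.813 to 0.915 at triadimefon 1800 ppm, 0.723 to 0.776 at triadimefon 500 ppm and 0.757 to 0.868 in the controls. The part of this spread in the differences was not tested. Differences are given in score units, not as folds. The extraction protocol speaks of testis, whereas liver is named in the titles and in the labelling step. The summed score of 9 hepatocyte markers ranged from 35.6 to 62.1 over the arrays. The sum over 9 testis markers was at most 4.09 except on 5 arrays, where it ran from 6.40 to 8.55, with Prm1, a sperm protamine, reaching 3.15. Those 5 were myclobutanil 500 ppm replicates 2 and 5, myclobutanil 2000 ppm replicate 5, triadimefon 500 ppm replicate 3 and triadimefon 1800 ppm replicate 2. Myclobutanil 500 ppm replicate 1 stood apart in the 3′ minus 5′ difference, the mean score by which the 3′ probe sets of GAPDH and beta-actin exceed their 5′ ones, a measure that grows as RNA is broken or incompletely copied. That array was at 2.45, against 1.16 to 1.86 for triadimefon 1800 ppm, 0.469 to 0.577 for triadimefon 500 ppm and 0.5003 to 2.12 for the controls. Of the 32 arrays, 9 had a GAPDH difference above 0.9. Controls 5 to 7 and triadimefon 1800 ppm replicates 2 to 4 came from animals numbered above 3000, and all other animals were numbered below 3000.

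Among the 10 genes, the fibrillar collagen gene Col1a2 differed among the 7 groups (limma F test, adjusted p = 0.0372) and the other 9 did not pass, where 6.76% of all probe sets passed. It rose in the livers of the triadimefon 1800 ppm group, where 1.17% of all probe sets differed from the controls. The other 9 genes did not pass in any of the 6 comparisons with the controls. The next smallest adjusted p among those comparisons was that of Dcn at triadimefon 500 ppm, 0.0759. The share of all probe sets past the threshold was 0 for both myclobutanil 500 ppm and propiconazole 500 ppm, 0.00966% for triadimefon 500 ppm, 0.0644% for myclobutanil 2000 ppm and 0.254% for propiconazole 2500 ppm. At triadimefon 1800 ppm the median difference over the 10 genes was 0.0969, beside 0.0313 over all genes, and 8 of the 10 differences were above 0, as were 71.7% of those of all genes.

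**Figure D1:**
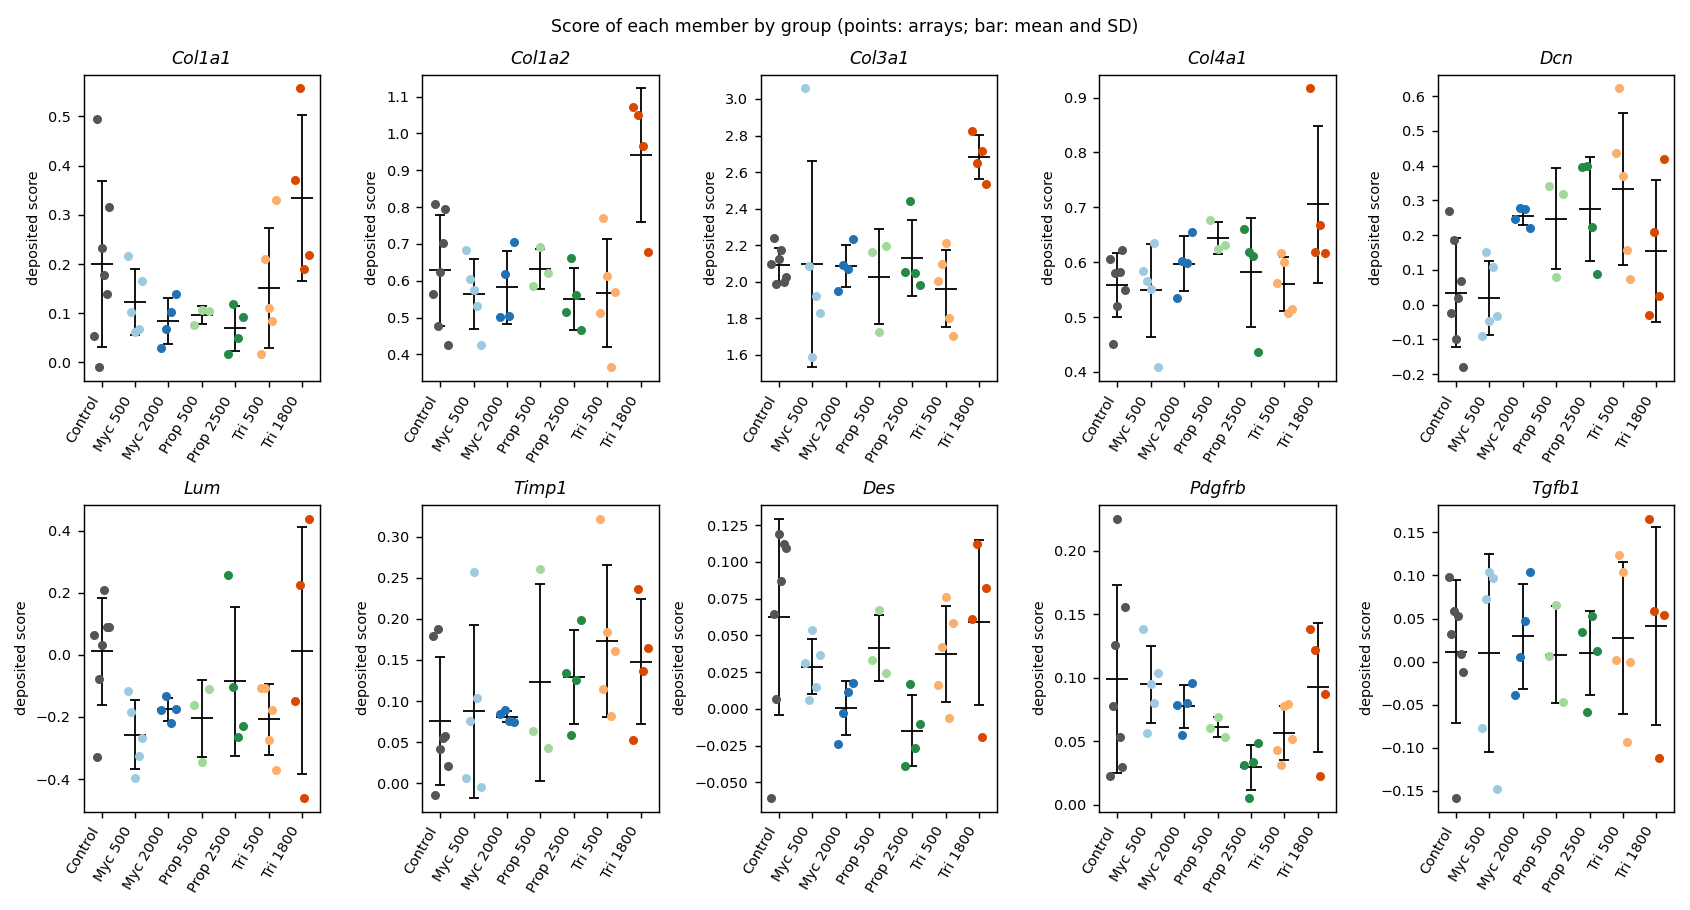
Deposited score of each of the 10 genes (vertical axis, score units, a separate scale per gene) in the 7 groups (horizontal axis, feed level in ppm), with a point per array and bars for the mean and SD. The triadimefon 1800 ppm points of Col3a1 (2.53 to 2.83) lie above all controls (1.99 to 2.24), and those of Col1a2 overlap the controls in 1 array.

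Type I collagen, the main fibre of scar and of the liver capsule, is built from the products of Col1a1 and Col1a2. The Col1a2 score in the controls was 0.425 at the lowest, 0.624 at the median and 0.808 at the highest. In the 4 triadimefon 1800 ppm animals it was 1.07, 1.05, 0.966 and 0.677. The first 3 of these exceeded every control and the last lay within the control range. The means were 0.941 ± 0.181 (SD, n = 4) and 0.628 ± 0.150 (SD, n = 7), a difference of 0.313 ± 0.0782 (SE; 95% interval 0.152 to 0.473; limma adjusted p = 0.0410). Myclobutanil 500 ppm gave 0.682, 0.606, 0.575, 0.533 and 0.424, and myclobutanil 2000 ppm gave 0.502, 0.619, 0.504 and 0.706. Propiconazole 500 ppm gave 0.585, 0.692 and 0.620, and propiconazole 2500 ppm gave 0.515, 0.662, 0.561 and 0.466. Triadimefon 500 ppm gave 0.513, 0.769, 0.613, 0.365 and 0.570. All of these overlapped the controls, and the 5 group means, from 0.551 to 0.633, lay within 1 SD of the control mean.

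The call of Col1a2 at triadimefon 1800 ppm held in 11 of 25 alternative settings, with a positive difference in all 25 (0.250 to 0.455, adjusted p 0.00779 to 0.841). It ended with quantile normalisation (0.251, adjusted p = 0.142), without any 1 of controls 1, 3, 4 and 7 (adjusted p = 0.0850, 0.0875, 0.0598 and 0.0757), and without any 1 of triadimefon 1800 ppm replicates 1 to 3 (adjusted p = 0.152, 0.131 and 0.0878). Leaving out the 5 arrays of high testis marker sum gave 0.277 and an adjusted p of 0.166. With only the triadimefon 1800 ppm and control groups in the fit Col1a2 did not pass either. The gene's other probe set had means of 0.510 and 0.323 and a difference of 0.187 ± 0.0709 (SE, adjusted p = 0.265). With the 3′ minus 5′ difference as a covariate the value was 0.313 (adjusted p = 0.0365).

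Col1a1 varied more among the controls, from −0.00997 to 0.496 with a median of 0.178. Its 4 scores at triadimefon 1800 ppm were 0.371, 0.557, 0.191 and 0.218, of which 1 exceeded every control. The difference was 0.133 ± 0.0719 (SE, adjusted p = 0.538), and 0.0725 for the gene's other probe set. The Col1a1 means of the other 5 treated groups ran from 0.0691 at propiconazole 2500 ppm to 0.151 at triadimefon 500 ppm, all below the control mean of 0.201 and within 1 control SD (0.169) of it.

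Type III collagen, encoded by Col3a1, forms the fine reticular network of the liver and is laid down with type I collagen in repair. Col3a1 scores of the controls were 1.99 at the lowest, 2.10 at the median and 2.24 at the highest. In the triadimefon 1800 ppm animals they were 2.83, 2.65, 2.72 and 2.53. Every treated array lay above every control, which was so for 1 of the 10 genes and for 1.18% of all probe sets. The difference was 0.590 ± 0.165 (SE; 95% interval 0.251 to 0.928), with an adjusted p of 0.0809 that did not pass. The spread shared by the fit included the myclobutanil 500 ppm group, whose scores were 3.06, 2.08, 1.59, 1.92 and 1.83 (SD 0.566), against an SD of 0.0935 in the controls. The score of 3.06 came from replicate 1, the array of largest 3′ minus 5′ difference and of largest SD over all probe sets (1.02). Without that array in any fit the Col3a1 difference was 0.590 ± 0.104 (SE, adjusted p = 0.00191), and with only the 2 groups in the fit it was 0.590 ± 0.0618 (SE, adjusted p = 0.00242). Of all probe sets 1.62% and 0.216% passed in those fits. The fit without that array was chosen after the data were seen. With each array of the 2 compared groups left out in turn, Col3a1 passed in 0 of 11 fits (adjusted p 0.0835 to 0.196). The part of the myclobutanil 500 ppm spread in the result as reported was not tested.

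In the remaining groups Col3a1 gave 1.95, 2.09, 2.07 and 2.23 at myclobutanil 2000 ppm and 2.16, 1.73 and 2.19 at propiconazole 500 ppm. It gave 2.06, 2.44, 2.05 and 1.98 at propiconazole 2500 ppm and 2.00, 2.10, 2.21, 1.80 and 1.70 at triadimefon 500 ppm. Each of these groups overlapped the controls, and their differences from the controls ran from −0.130 ± 0.154 to 0.0391 ± 0.165 (SE).

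Type IV collagen, to which Col4a1 contributes a chain, is the sheet-forming collagen of basement membranes. Col4a1 scores of the controls were 0.450 at the lowest, 0.581 at the median and 0.623 at the highest. At triadimefon 1800 ppm they were 0.917, 0.619, 0.668 and 0.618, of which 2 exceeded every control. The difference of 0.147 ± 0.0493 (SE) did not pass (adjusted p = 0.179), and it was 0.0764 ± 0.0442 without replicate 1, the animal at 0.917. The other probe set gave 0.0726 ± 0.0525. All 3 propiconazole 500 ppm arrays, at 0.677, 0.625 and 0.631, also lay above every control, as did 0.287% of all probe sets. The difference was 0.0857 ± 0.0542 (SE, adjusted p = 0.568). On the other probe set these arrays, at 0.475 to 0.561, lay within the control range of 0.348 to 0.585. In the other groups Col4a1 ranged from 0.408 to 0.661 and overlapped the controls.

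Col1a2 and Col4a1 were the collagen genes among the 10 that have an entry in the RefSeq promoter table used here (build GRCr8), in which 6 of the 10 genes matched. Their 250 bases before the gene start are shown for that reason. Capitals mark the matches to CCAAT, read as ATTGG where it lies on the reverse strand, and to TATAAA, both searched on both strands. The first sequence is chr4:33518307-33518556 and the second is chr16:84885347-84885596, both on the plus strand, immediately before the annotated gene start and written 5′ to 3′.
Col1a2: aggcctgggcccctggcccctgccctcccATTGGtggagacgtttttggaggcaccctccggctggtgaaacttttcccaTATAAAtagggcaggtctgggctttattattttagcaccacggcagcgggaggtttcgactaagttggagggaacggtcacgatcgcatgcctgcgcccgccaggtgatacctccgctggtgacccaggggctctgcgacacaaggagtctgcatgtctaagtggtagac
Col4a1: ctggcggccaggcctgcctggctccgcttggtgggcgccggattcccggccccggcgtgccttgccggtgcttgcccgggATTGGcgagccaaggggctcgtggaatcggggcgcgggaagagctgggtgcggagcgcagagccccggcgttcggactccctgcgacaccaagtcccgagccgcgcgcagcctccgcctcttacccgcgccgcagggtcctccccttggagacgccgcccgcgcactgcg
Counted from the annotated gene start, the CCAAT match of Col1a2 began at −221, on the reverse strand, and its TATAAA match at −170. In Col4a1 a CCAAT match on the reverse strand began at −170, and TATAAA was not in the window. CCAAT occurred in 34.02% and TATAAA in 12.93% of the 33469 windows of the same length. The letters CAGAC, the core to which SMAD proteins of the TGF-beta pathway bind, occurred at 2 places in the Col1a2 window and at none in that of Col4a1, in 2 of the 6 members' windows and in 42.93% of all windows.

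Decorin and lumican, encoded by Dcn and Lum, are small leucine-rich proteoglycans that coat collagen fibrils, and decorin also binds TGF-beta. Dcn scores of the controls were −0.180 at the lowest, 0.0182 at the median and 0.270 at the highest. At triadimefon 500 ppm they were 0.438, 0.622, 0.371, 0.158 and 0.0747, of which 3 exceeded every control. The difference was 0.299 ± 0.0895 (SE), with an adjusted p of 0.0759 that did not pass. Myclobutanil 2000 ppm gave 0.248, 0.278, 0.274 and 0.220, propiconazole 500 ppm gave 0.342, 0.0792 and 0.320, and propiconazole 2500 ppm gave 0.396, 0.398, 0.223 and 0.0867. Their differences were 0.221 ± 0.0958, 0.213 ± 0.105 and 0.242 ± 0.0958 (SE), with adjusted p of 0.166, 0.541 and 0.182, and each group overlapped the controls. The Dcn mean was 0.0188 ± 0.106 (SD, n = 5) at myclobutanil 500 ppm and 0.155 ± 0.204 (SD, n = 4) at triadimefon 1800 ppm.

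The groups of higher Dcn mean were also those of small 3′ minus 5′ difference, with group means of that difference from 0.518 to 0.694, against 1.21 to 1.49 in the controls, myclobutanil 500 ppm and triadimefon 1800 ppm. With it as a covariate the triadimefon 500 ppm difference of Dcn was 0.215 ± 0.0987 (SE, adjusted p = 0.9996). Without control 1 or control 3 the difference passed (0.338, adjusted p = 0.0297, and 0.324, adjusted p = 0.0280), as it did without myclobutanil 500 ppm replicate 1 in the fit (0.299, adjusted p = 0.0454). In those 3 fits 12.1%, 14.4% and 8.01% of all probe sets passed, against 0.00966% as reported.

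Lum had a mean among the lowest 40% of probe sets, the part removed by the filter on dim probe sets, which the other 9 genes passed. Its control scores ran from −0.328 through a median of 0.0648 to 0.210. At myclobutanil 500 ppm they were −0.117, −0.184, −0.397, −0.325 and −0.266, with 1 array below every control. The difference was −0.269 ± 0.111 (SE, adjusted p = 0.9996). The 4 triadimefon 1800 ppm scores, −0.149, 0.226, −0.460 and 0.439, spanned more than the controls on both sides.

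Timp1, the tissue inhibitor of metalloproteinases that is secreted by activated stellate cells, ranged from −0.0151 to 0.188 in the controls. Its group means ran from 0.0754 in the controls to 0.173 at triadimefon 500 ppm. The triadimefon 500 ppm scores were 0.322, 0.114, 0.184, 0.0819 and 0.161, of which 1 exceeded every control, and the difference was 0.0973 ± 0.0477 (SE, adjusted p = 0.172). At triadimefon 1800 ppm, where Col1a2 rose, the Timp1 difference was 0.0723 ± 0.0510 (SE, adjusted p = 0.693).

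Desmin, encoded by Des, is the intermediate filament by which stellate cells of rat liver are commonly stained, and Pdgfrb marks stellate cells and other pericytes. Both had scores near the middle of the arrays in all groups. Des ranged from −0.0603 to 0.119 in the controls, and was −0.0389, 0.0169, −0.0263 and −0.0105 at propiconazole 2500 ppm, within that range. The difference was −0.0774 ± 0.0278 (SE, adjusted p = 0.157). Pdgfrb ranged from 0.0228 to 0.225 in the controls, and was 0.0310, 0.00573, 0.0336 and 0.0483 at propiconazole 2500 ppm, with 1 array below every control and a difference of −0.0691 ± 0.0285 (SE, adjusted p = 0.191). Of its 2 other probe sets, that with the next highest mean gave −0.0813 ± 0.0436 (SE). With the 3′ minus 5′ difference as a covariate the propiconazole 2500 ppm values were −0.0421 for Des and −0.0406 for Pdgfrb. At triadimefon 1800 ppm the differences were −0.00368 ± 0.0278 for Des and −0.00643 ± 0.0285 for Pdgfrb (SE), neither of which exceeded its SE. The Pdgfrb probe set of next highest mean had means of −0.0139 there and 0.0919 in the controls. The remaining Pdgfrb probe set went the other way, at 0.0561 and 0.0312. Within groups, their r with the main probe set was −0.298 and 0.598.

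Tgfb1, the ligand, had group means between 0.00815 and 0.0415, and the F test gave an adjusted p of 0.997. The controls ranged from −0.158 to 0.0987 and the triadimefon 1800 ppm animals were at 0.166, 0.0586, −0.112 and 0.0536. The 95% interval of that difference was −0.0800 to 0.140.

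**Figure D2:**
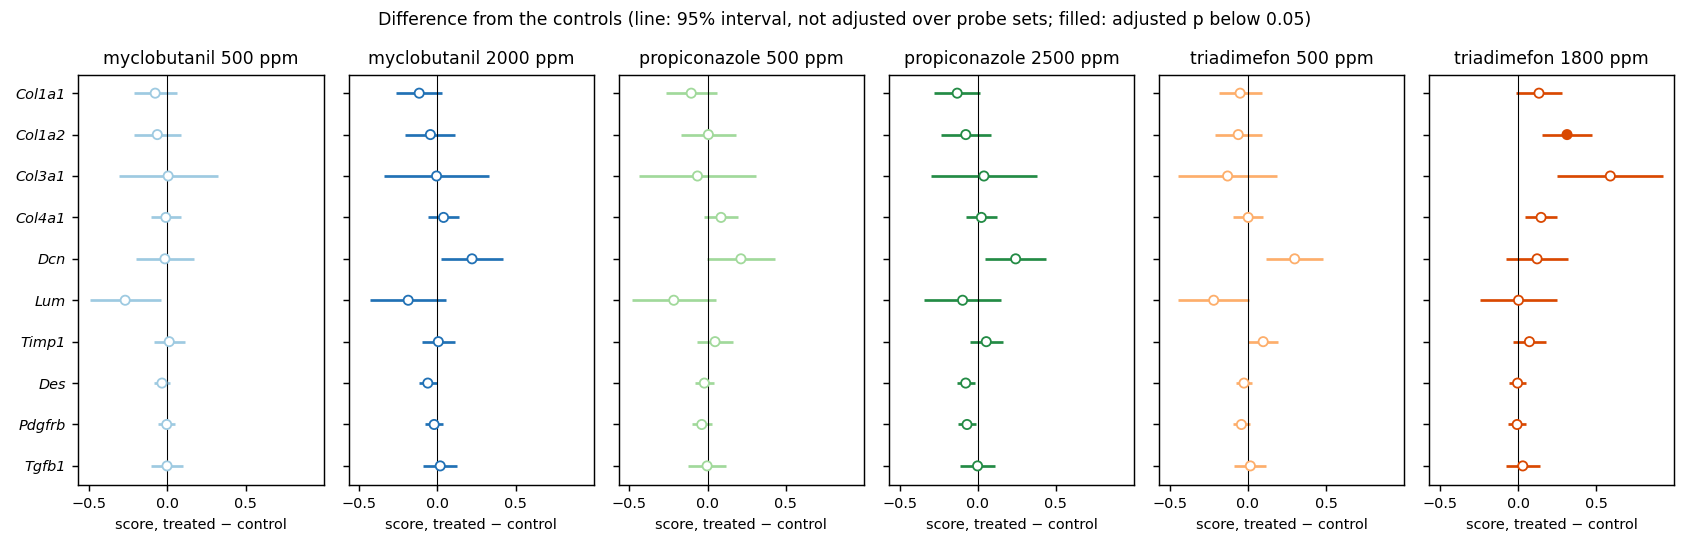
Difference in score of each of the 10 genes between each treated group and the controls (horizontal axis, score units), with 95% intervals and filled points where the limma adjusted p passed. Col1a2 at triadimefon 1800 ppm (0.313, interval 0.152 to 0.473) is the filled point.

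The highest against the lower feed level of the same compound was compared next. Between triadimefon 1800 and 500 ppm, Col1a2 was higher by 0.375 ± 0.0837 (SE, adjusted p = 0.00543), Col3a1 by 0.720 ± 0.177 (SE, adjusted p = 0.00864) and Col4a1 by 0.145 ± 0.0527 (SE, adjusted p = 0.0448). The 4 arrays at 1800 ppm lay above all 5 at 500 ppm for Col3a1 and Col4a1, and 3 of them did for Col1a2. Of all probe sets 24.8% passed this comparison, and 21.8% did not overlap in this way, so 3 and 2 of 10 genes are close to the background. The other Col4a1 probe set did overlap, at 0.444 to 0.659 for 1800 ppm and 0.343 to 0.572 for 500 ppm. So did the other Col1a2 probe set, at 0.360 to 0.606 and 0.254 to 0.405. Within groups, r between a gene's 2 probe sets was 0.142 for Col4a1 and 0.613 for Col1a2. Col1a1 was at 0.184 ± 0.0769 (SE, adjusted p = 0.0761), and passed with the replicate block (0.200, adjusted p = 0.0388). Dcn had the opposite sign, −0.177 ± 0.102 (SE, adjusted p = 0.188). The 3′ minus 5′ difference did not overlap between these groups either. With it as a covariate none of the 10 genes passed, at 0.375 for Col1a2 (adjusted p = 0.0934), 0.492 for Col3a1 (0.253) and 0.189 for Col4a1 (0.155), and with quantile normalisation none did, at 0.234, 0.335 and 0.0260.

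**Figure D3:**
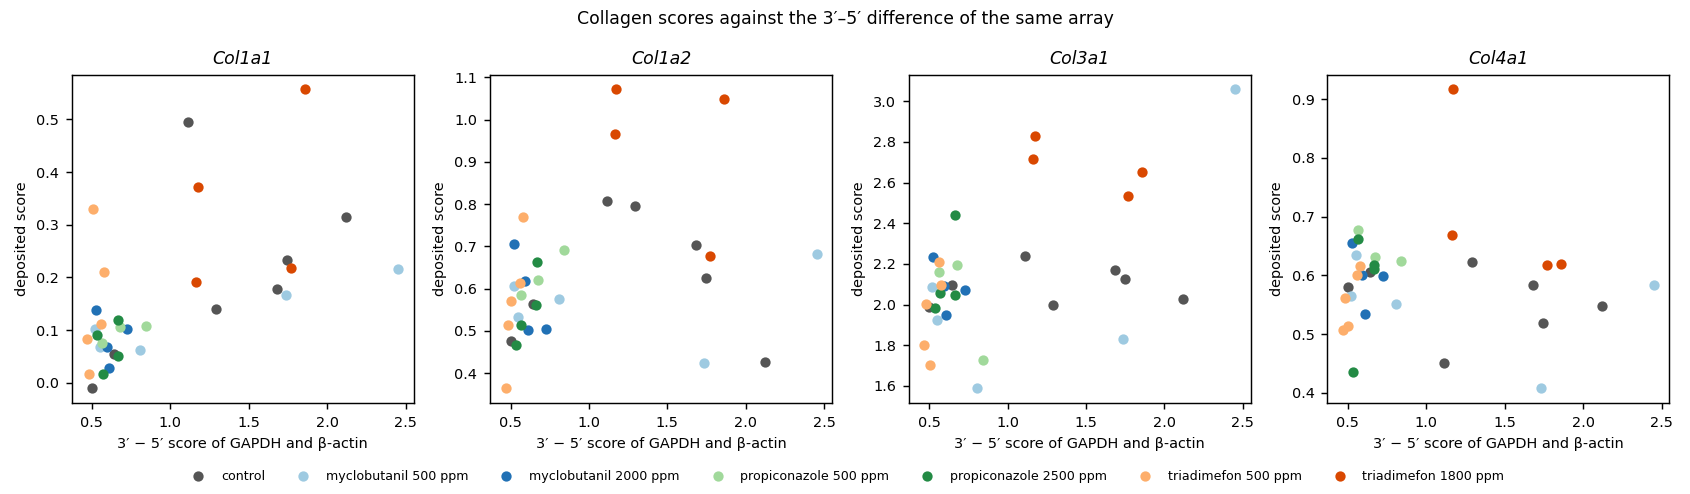
Score of the 4 collagen genes (vertical axes) against the 3′ minus 5′ score difference of GAPDH and beta-actin on the same array (horizontal axis), a point per array, coloured by group. The triadimefon 1800 ppm arrays lie between 1.16 and 1.86 and the triadimefon 500 ppm arrays between 0.469 and 0.577, and the controls, from 0.5003 to 2.12, overlap both.

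Neither myclobutanil 2000 against 500 ppm nor propiconazole 2500 against 500 ppm gave a member past the threshold, and the share of all probe sets was 0 in each. Dcn was 0.236 ± 0.102 (SE, adjusted p = 0.447) higher at myclobutanil 2000 ppm, with all 4 arrays above all 5 at 500 ppm, as for 0.515% of all probe sets. Des at propiconazole 2500 ppm lay below all 3 arrays of 500 ppm in all 4 animals, by 0.0563 in the means (−0.0563 ± 0.0339, SE, adjusted p = 0.99997). The main Pdgfrb probe set did likewise (−0.0313 ± 0.0347). Of all probe sets 1.91% were separated in that direction. The other Pdgfrb probe sets overlapped between these groups. That of next highest mean had means of 0.0106 at 2500 ppm and 0.0722 at 500 ppm. The remaining one went the other way, at −0.0253 and −0.0527.

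The 3 fungicides all carry a 1,2,4-triazole ring and were compared pairwise at their shared level of 500 ppm. In the 3 pairs none of the 10 genes passed, and the share of all probe sets was 0 in each pair. Col1a2 differed by −0.0687 (95% interval −0.256 to 0.118) between myclobutanil and propiconazole, by −0.00201 (−0.164 to 0.160) between myclobutanil and triadimefon, and by 0.0667 (−0.120 to 0.254) between propiconazole and triadimefon. The intervals of Col3a1 were wider, at −0.324 to 0.465, −0.206 to 0.477 and −0.329 to 0.460 for the same pairs. Dcn was lower with myclobutanil than with triadimefon by 0.314 in the means (−0.314, interval −0.512 to −0.116, adjusted p = 0.236). The upper feed levels differ between compounds. Side by side, the Col1a2 means were 0.583 at myclobutanil 2000 ppm, 0.551 at propiconazole 2500 ppm and 0.941 at triadimefon 1800 ppm, and those of Col3a1 were 2.09, 2.13 and 2.68.

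**Figure D4:**
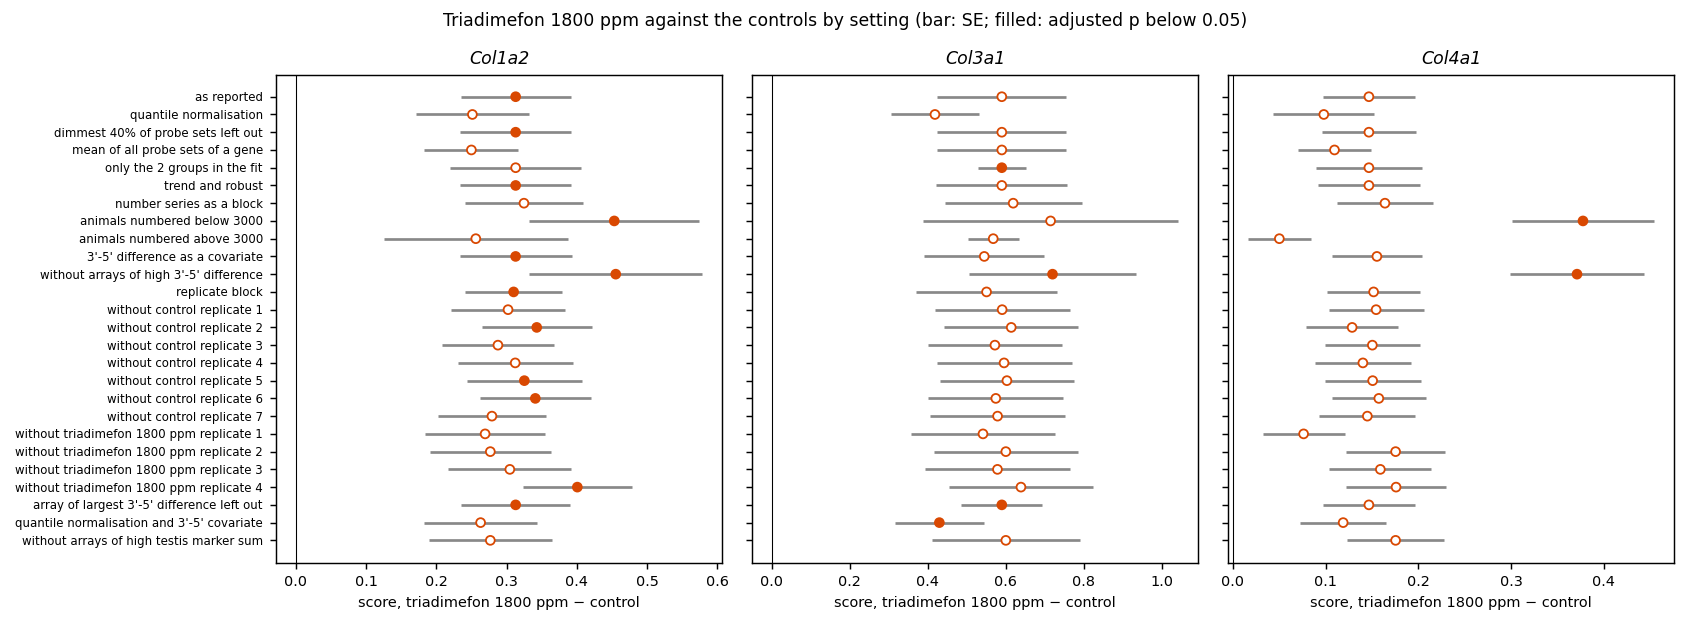
Difference in score between triadimefon 1800 ppm and the controls for Col1a2, Col3a1 and Col4a1 (horizontal axes) under each setting (vertical axis), with SE bars and filled points where the adjusted p passed. All differences are above 0, and Col1a2 passes in 11 of 25 alternatives, Col3a1 in 4 and Col4a1 in 2. Both Col4a1 passes, and 2 of those of Col1a2 and 1 of Col3a1, come from fits with 1 treated animal, replicate 1.

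The animal number divided the controls and the triadimefon 1800 ppm group. Among animals numbered above 3000 (3 treated, 3 controls) the differences were 0.256 ± 0.131 for Col1a2 (SE, adjusted p = 0.841), 0.568 ± 0.0659 for Col3a1 (adjusted p = 0.104) and 0.0502 ± 0.0340 for Col4a1. Among those below 3000, with 1 treated animal against 4 controls, they were 0.453, 0.715 and 0.378, where the lone treated animal is assumed to vary like the other groups. With the number series as a block Col1a2 was at 0.325 (adjusted p = 0.0553) and Col3a1 at 0.619 (adjusted p = 0.0924).

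Within groups, after each group's mean was subtracted, the fibrillar collagens had positive correlations over the 32 arrays, with Pearson's r of 0.445 for Col1a1 and Col1a2, 0.425 for Col1a2 and Col3a1 and 0.220 for Col1a1 and Col3a1 (Spearman's rho 0.423, 0.520 and 0.278). Without the 2 arrays farthest from the median of the gene named first these were 0.318, 0.432 and 0.229. Col1a1 went with Des at r = 0.546 (rho 0.508), Col4a1 with Tgfb1 at 0.532 (rho 0.542) and Dcn with Lum at 0.515 (rho 0.507). Col3a1 and Timp1 ran opposite, at −0.463 (rho −0.419). These values share the array and its RNA quality, and Des and the 3′ minus 5′ difference had an r of 0.562 over the same arrays (rho 0.634). The genes most like the mean of Col1a1, Col1a2 and Col3a1, out of 14207, were Cat (r = 0.734), Serpina3l (0.730), Vim (0.729), Ugt2b1 (0.725) and Slc40a1 (0.717). Without the 2 arrays farthest from the median of the collagen mean these were 0.493, 0.555, 0.627, 0.552 and 0.601.

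Other matrix genes were read from lists of related function. At triadimefon 1800 ppm Pcolce, which speeds the cleavage of the procollagen end, rose by 0.185 ± 0.0452 (SE; means 0.569 and 0.384; adjusted p = 0.0345), the 1 of 16 collagen-processing genes that passed. None of 17 other collagen genes passed. Of them 15 had positive differences and the list median was 0.0725, beside 71.7% positive and a median of 0.0313 over all genes. The smallest p was that of Col5a2, a fibril-regulating chain, at 0.213 ± 0.0585 (SE, adjusted p = 0.0732). Among 17 genes of matrix breakdown none passed (smallest p Mmp3, stromelysin, 0.0713, adjusted p = 0.121), and none of 27 proteoglycan and matrix glycoprotein genes did (Lamc1, a laminin chain, 0.122, adjusted p = 0.283). None of 20 genes of the TGF-beta pathway passed (Tgfb3, another ligand, 0.119, adjusted p = 0.0660), nor of 4 of the PDGF pathway (Pdgfa, a ligand, 0.186, adjusted p = 0.559). Mmp3 and Tgfb3 had means of −0.371 and −0.155 over all arrays, among the lowest 40% of probe sets.

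Stellate cell markers outside the 10 genes did not pass at triadimefon 1800 ppm either, where 71.7% of all genes had positive differences. Of 9 quiescent stellate markers 8 were positive (median 0.116), with Reln, the secreted glycoprotein reelin, at 0.336 ± 0.0954 (SE, adjusted p = 0.0877). Of 7 markers of activated stellate cells and myofibroblasts all were positive (median 0.103), with Vim, an intermediate filament, at 0.295 ± 0.0999 (SE, adjusted p = 0.182). Summed over its markers, the quiescent list ran from 7.60 to 8.88 at triadimefon 1800 ppm and from 5.67 to 7.74 in the controls, and the activated list from 3.56 to 5.03 and from 2.79 to 4.02. Both ranges overlapped. Acta2, smooth muscle actin and the usual myofibroblast marker, had a mean of 0.116 over all arrays.

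Most markers of other liver cells also had positive differences, as did 71.7% of all genes. All 9 Kupffer cell (liver macrophage) markers were positive at triadimefon 1800 ppm (median 0.363, none past the threshold, smallest p Csf1r, a growth factor receptor, at 0.332, adjusted p = 0.0789), with sums of 11.6 to 15.8 against 8.24 to 13.3 in the controls. Of 8 endothelial markers 7 were positive (median 0.0944, smallest p Lyve1, a hyaluronan receptor, at 0.378, adjusted p = 0.131), with sums of 8.86 to 10.4 against 7.59 to 9.74. All 9 hepatocyte markers were positive (median 0.374, smallest p Cyp2e1, a cytochrome P450, adjusted p = 0.605), with sums of 41.6 to 52.5 against 37.1 to 49.4. The 6 portal fibroblast markers had a median of 0.0189 and none passed (smallest p Fbln2, a fibulin, adjusted p = 0.398). Fbln2 had a mean of −0.0872 over all arrays, among the lowest 40% of probe sets. Of 5 bile duct markers only Epcam, an epithelial adhesion protein, passed, with a rise of 0.720 ± 0.116 (SE, adjusted p = 0.000791). The others, Krt19, Krt7, Cftr and Spp1, reached at most 0.0368, 0.0528, 0.0293 and 0.186 on any array. The bile duct sums, which include Epcam, ran from 0.516 to 1.21 against 0.0270 to 0.318 in the controls. The part of these cell types in the Col1a2 difference was not tested.

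**Figure D5:**
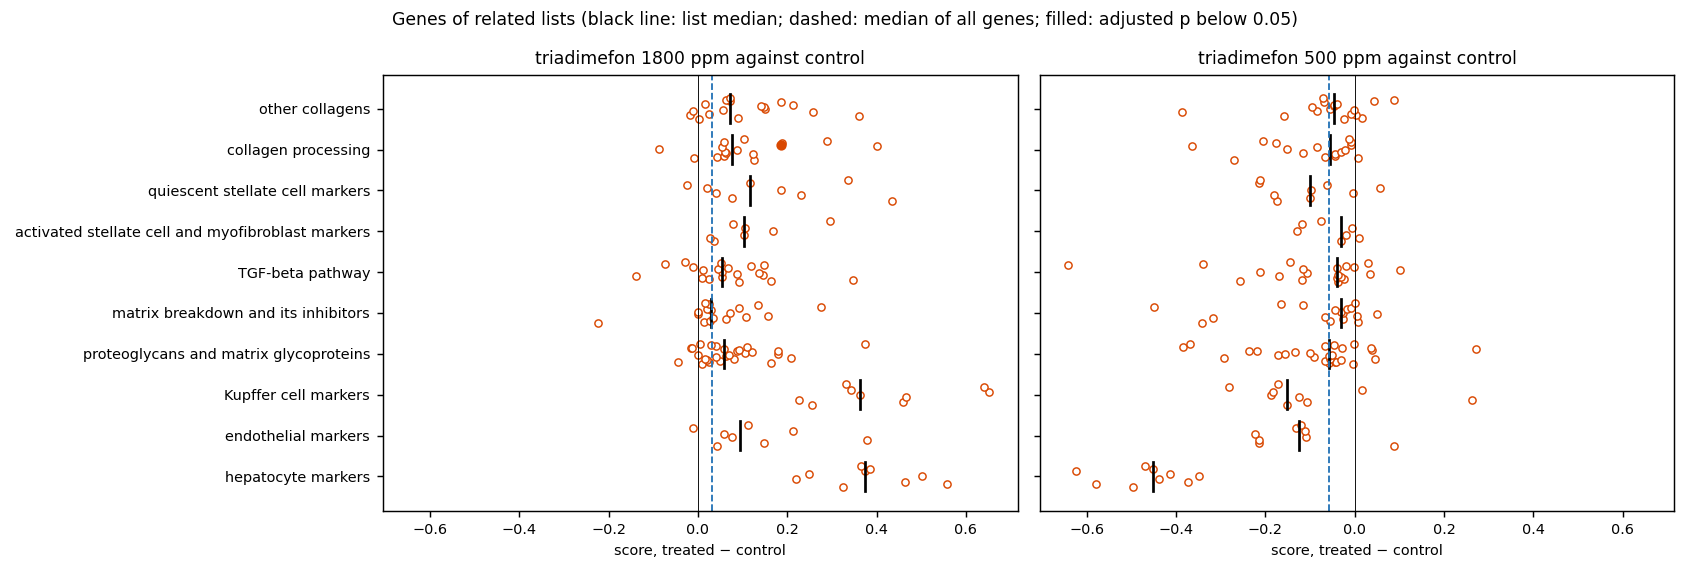
Differences in score from the controls of the genes of 10 related lists (horizontal axes, score units), at triadimefon 1800 ppm (left) and triadimefon 500 ppm (right), with a point per gene, a black line at each list's median and a dashed line at the median of all genes. At 1800 ppm the lists of other collagens, Kupffer cell and hepatocyte markers have medians to the right of 0 (0.0725, 0.363 and 0.374). So have the quiescent stellate, activated stellate and endothelial lists, and the dashed line also lies to the right of 0. Pcolce is the filled point.

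In the other 5 comparisons with the controls none of the genes of these lists passed. At triadimefon 500 ppm the median of the other collagens was −0.0460, beside −0.0584 over all genes, with Col18a1, a basement membrane collagen, at −0.388 ± 0.156 (SE, adjusted p = 0.115). Col18a1 had the smallest p of that list also at myclobutanil 2000 ppm (−0.441, adjusted p = 0.129) and propiconazole 2500 ppm (−0.369, adjusted p = 0.223). Tgfbr1, the receptor kinase of TGF-beta, was at −0.341, −0.479 and −0.415 in the same 3 comparisons (adjusted p = 0.0842, 0.0742 and 0.105). Acta2 had the smallest p of the activated stellate markers at propiconazole 2500 ppm, at −0.115 ± 0.0387 (SE, adjusted p = 0.142).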

How the data were processed

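The deposited score of each probe set and array was used as it stood. The deposited table names no scale, log base or normalisation for it, and the labels used here do not either. The labels list 35 arrays, of which 3 had no values (1 of myclobutanil 2000 ppm, 2 of propiconazole 500 ppm) and were not analysed here. Of 31099 probe sets, 57 controls were removed. The platform annotation gave 20826 probe sets 1 symbol, 436 several and 9780 none. limma 3.58.1 (R 4.3.3) fitted all 7 groups together, in 12 comparisons and an F test of the 6 against the controls. The p-values were two-sided and adjusted by Benjamini-Hochberg over 31042 probe sets, with a threshold of 0.05. The script was tested on simulated data. Arrays with a GAPDH 3′ minus 5′ difference above 0.9 count as high. The members and lists were chosen with earlier results of these data known. All 10 members are named, and in each related list the genes past the threshold or, with none, that of smallest p. Of 179 list genes 162 were measured. Correlations are given as descriptions. Same-numbered replicates did not deviate together (76 pairs, median r −0.0101). The number of arrays limits the precision.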

Additional observations from a re-analysis of the deposited data

Results flagged for a closer look

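Of the 60 combinations of gene and group with enough samples to look for an animal far from the others of its group, 2 met Dixon's criterion. Chance alone flags about 1 in 20 groups. Col3a1 was 2.44 in propiconazole 2500 ppm replicate 2, where the nearest animal of the group was at 2.06. Col4a1 was 0.917 in triadimefon 1800 ppm replicate 1, where the nearest was at 0.668. That animal was the only triadimefon 1800 ppm animal numbered below 3000, and its 3′ minus 5′ difference was 1.17. The part of either in the value was not tested.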

How the results depend on the processing

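Alternatives were compared by how many of the 10 genes passed. For triadimefon 1800 ppm against the controls, 1 gene passed as reported. None did with quantile normalisation, with a gene's probe sets averaged, with a block for the animal number series, in the animals above 3000 or without arrays of high testis marker sum. Without the myclobutanil 500 ppm array of largest 3′ minus 5′ difference, 2 passed. With only the compared groups in the fit Col3a1 passed and Col1a2 did not, so an equal count can hide a change of gene. In animals numbered below 3000, and without arrays of high 3′ minus 5′ difference, 1 treated array remained, and no count is given. The share of all probe sets past the threshold in that comparison ran from 0.0419% to 17.7% over the alternatives, beside 1.17%. For triadimefon 1800 against 500 ppm, 3 passed as reported, 0 with quantile normalisation, 0 with the 3′ minus 5′ difference as a covariate, 0 with both, and 1 with the number series block. Of all probe sets 0.283% passed with that covariate, beside 24.8%. The F test's 1 gene became 0 with quantile normalisation, the number series block, animals numbered below 3000, the covariate alone, the covariate with quantile normalisation, and without arrays of high testis marker sum, and 2 without the array of largest 3′ minus 5′ difference. Without arrays of high 3′ minus 5′ difference the F test again passed 1 gene, but Col4a1 (adjusted p = 0.0255) in place of Col1a2 (0.0926), and with the next probe set Col1a2 did not pass it (0.178). As reported the F test passed 6.76% of all probe sets. Its shares under the alternatives are not given here, nor is that of the number series block for triadimefon 1800 against 500 ppm. Those counts are not read against a background. For triadimefon 500 ppm against the controls, leaving out the array of largest 3′ minus 5′ difference gave 1 gene (Dcn), against 0 as reported. The cause was not tested.

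Leaving out each replicate in turn gave 0 to 1 gene for triadimefon 1800 ppm, 0 to 1 for propiconazole 2500 ppm (Des without control 1, −0.0979, adjusted p = 0.0342), 0 to 1 for triadimefon 500 ppm, 2 to 4 for triadimefon 1800 against 500 ppm, and 0 in each of the other 8 comparisons. The share of all probe sets passing then ran from 0.818% to 1.42%, 0.0258% to 3.32%, 0 to 14.4% and 14.3% to 24.4% in the 4 comparisons named. With the replicate block, the fit for paired numbers, Col1a2 was at 0.310 (adjusted p = 0.0218) and 1 gene passed at triadimefon 1800 ppm. The numbers do not pair the arrays: same-numbered pairs correlated from −0.666 to 0.596, and 4 of 32 arrays went best with their own number. No called difference changed sign under any alternative run. The alternatives without that array, with quantile normalisation and the covariate together, without high testis marker sums, and with the next probe set were chosen after seeing the data. Small groups and scores near the middle of the array, as for Des, Pdgfrb and Tgfb1, limit what could be detected.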
